A study of Mus musculus with 18 samples.

Results

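The response of a mouse macrophage-like cell line to 3 h of R848 was measured on 3 arrays, out of 18 arrays in all. One array held RNA of cells given R848 alone (0.1 mM as the labels write it, a unit that could not be checked here), one of cells given R848 together with API09 at 1 uM, and one of cells kept in medium for the same 3 h. API09 is described in the study's design as an inactive analog of apilimod and is known here by its code name only. The arrays were chosen by their titles. The cells were RAW cells, an immortal mouse line that behaves like a macrophage in culture, and the labels name no added gene, allele or other treatment in any of these groups. Further arrays of the same design covered 0 h (2 arrays in medium) and 1 h, 7 h and 22 h (R848, R848+API09, R848+apilimod and medium, 1 array each). The R848+apilimod array at 3 h does not enter the comparison at that hour. At each hour, the array with R848 and the one with R848+API09 were read as 2 arrays of R848-treated cells.

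R848 (resiquimod) is a small imidazoquinoline that enters endosomes and activates Toll-like receptor 7, a sensor of single-stranded RNA. The receptor recruits the adaptor MyD88, which turns on IRAK kinases, NF-kB and MAP kinases. NF-kB then drives a first wave of cytokine, chemokine and feedback inhibitor genes, and secreted interferon beta drives a later wave of antiviral genes through STAT factors. Macrophages use this programme to recruit and instruct other immune cells, and they often leave the cell cycle while doing so.

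Each value is a fluorescence intensity of a probe set, a group of short DNA probes for 1 gene, on a linear scale as deposited. Differences are mean log2(intensity + 16) of the R848 and R848+API09 arrays minus that of the medium array, so that positive values are higher with R848, and they are given ± their standard error. The offset of 16 understates changes of dim genes. A gene was called where limma's moderated test, adjusted over 12257 genes with the Benjamini-Hochberg method, gave an adjusted p below 0.05. The spread came from the R848 and R848+API09 pairs of all hours and from the 2 medium arrays at 0 h, because medium had 1 array at 3 h, which is assumed to vary like the others. Nothing in the labels says whether the arrays stem from separate cultures, so p-values measure only how far these arrays lie apart, and that distance may be technical. In bulk RNA, fewer cells that use a gene and less RNA per cell cannot be told apart.

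The arrays at 3 h had similar median intensities over all probe sets, of 18 (R848), 18.1 (R848+API09) and 17.8 (medium). These medians lie near the level used to filter probe sets, so they say little about brighter genes. Upper quartiles were lower on the R848 arrays, at 112.5 (R848) and 111.3 (R848+API09), against 116.1 (medium). Median log2 values over genes were 7.266 (R848), 7.255 (R848+API09) and 7.335 (medium), so both R848 arrays were slightly dimmer than medium. Across genes, the R848+API09 array differed from the R848 array by a median absolute log2 difference of 0.0674, and no gene differed by 1 or more. All 9 macrophage markers tested were bright, between 118 and 17587.1, Lyz2, Csf1r, Cd68 and Cd14 among them. Of the 9, Itgam and Spi1 were called higher and Fcgr1 lower with R848, and 1 was higher and 0 lower when either R848 array at 3 h was left out (leaving out R848+API09 at 22 h gave 2 lower). The 14 tested of 41 markers of other cell types lay between 14.5 and 51.6, and they summed to 408 on the R848 array, 386 on the R848+API09 array and 362 on the medium array. One of them, Zbtb46, was called higher with R848, but not without any 1 of the R848 arrays at 3 h or the medium arrays at 0 h. None of the 11 housekeeping genes was called (1 lower without the R848+API09 array at 22 h or with medium at 0 h as the comparator), with a median difference of -0.04, against -0.03 over all genes tested. Actb, the cytoskeletal actin gene, had 17320.0 and 16969.7 on the R848 arrays, against 16837 in medium.

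After 3 h of R848, 1891 of 12257 genes (15.4%) were called. Of these, 764 genes (6.23%) were higher and 1127 (9.19%) were lower with R848, but the large changes ran the other way, since 256 genes (2.09%) rose by at least 1 log2 unit and 109 (0.889%) fell by as much. With each array centred on its median, the counts were 1016 higher and 1045 lower. Rises reached further too, with 72 genes at 2 or more, 27 at 3 or more and 15 at 4 or more, whereas 6 genes fell by 2 or more and 2 by 3 or more. The count of lower genes was 692 without the R848+API09 array at 3 h, 726 without the R848 array at 3 h and 1899 without the R848+API09 array at 22 h, whose pair had the widest spread (SD of the pair difference 0.222, against 0.111 at 3 h). Counts of genes past 1 log2 unit stayed between 255 and 256 for rises and between 108 and 110 for falls when any 1 of these arrays or of the medium arrays at 0 h was left out. Of these, only the R848 and R848+API09 arrays at 3 h enter the difference itself, and the medium array at 3 h was never left out. With each array centred on its median, 269 genes rose and 86 fell by at least 1. An offset of 1 gave 296 rises and 161 falls, and an offset of 64 gave 186 and 42.

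**Figure D1:**
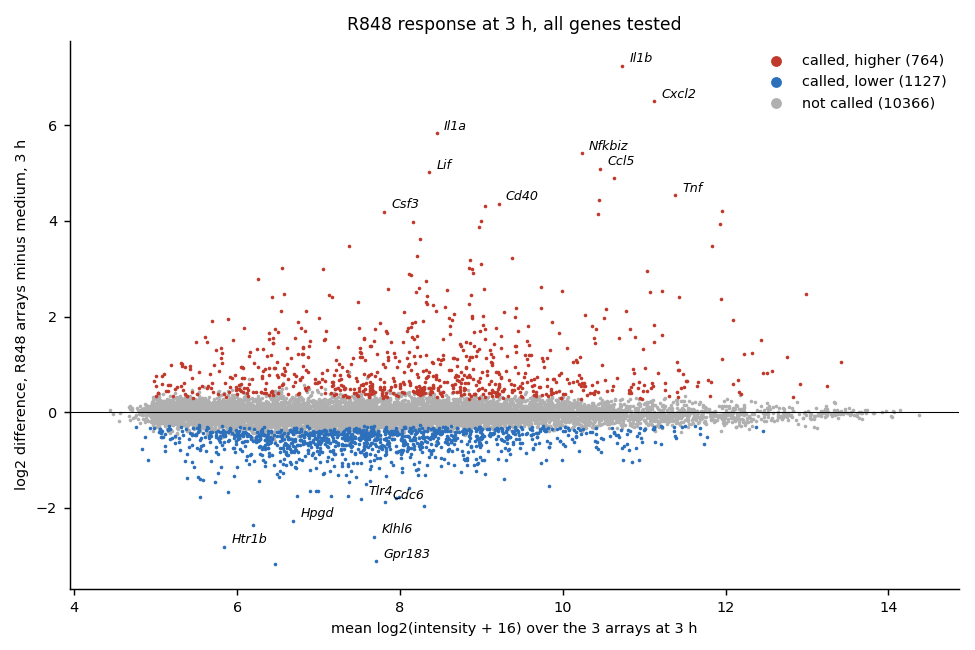
Each point is 1 of 12257 genes, with the mean log2(intensity + 16) over the 3 arrays at 3 h on the horizontal axis and the log2 difference between the R848 arrays and medium on the vertical axis. The 764 higher genes reach 7.25 (Il1b) and the 1127 lower genes reach -3.17.

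The largest rise was that of Il1b, the secreted cytokine interleukin-1 beta, which read 9114 and 8932 on the R848 arrays (R848 first, R848+API09 second, here and below), against 43.5 in medium. Its difference of 7.25 ± 0.17 (limma, adjusted p = 5.52e-10) came with 5.83 for its neighbour Il1a, the related alarmin, at 1328 and 1328 on the R848 arrays and 7.62 in medium. Cxcl2, a chemokine that attracts neutrophils, read 10771 and 9246 on the R848 arrays, against 94.2 in medium (6.50 ± 0.15). On all of these the R848 arrays lay close together and far above medium. Nfkbiz, a nuclear IkB protein needed for secondary NF-kB targets, had 4100.2 and 4282 with R848 and 82.4 in medium (5.42 ± 0.09). Ccl5, a chemokine for T cells and monocytes, had 4359 and 4723 with R848 and 118 in medium (5.09 ± 0.10). Lif, a cytokine of the interleukin-6 family, had 1107 and 960.3 with R848 and 16.4 in medium (5.01 ± 0.13). The 20 largest rises were taken from genes with both R848 arrays above medium. That condition removed none, since 0 of the 1891 called genes had R848 arrays on both sides of medium. Among the 20, the R848+API09 array differed from the R848 array by at most 0.22 on the log2 scale.

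Among the other large rises were secreted messengers, surface receptors, enzymes and inhibitors. Tnf, the inflammatory cytokine, read 7827 and 7328 on the R848 arrays, against 311 in medium (4.54 ± 0.11). Socs3, an inhibitor of JAK-STAT signalling, rose by 4.90, and Csf3, the granulocyte colony-stimulating factor, by 4.18. The costimulatory molecules Cd83 and Cd40 rose by 4.44 and 4.35, the TNF receptor gene Tnfrsf1b by 4.003, and Hcar2, the niacin receptor, by 3.98. Ptgs2, the inducible cyclooxygenase, read 3529 and 3621 with R848 and 188 in medium (4.13 ± 0.13), and Acod1, which makes itaconate from a citric acid cycle intermediate, read 9858 and 9389 with R848 and 617 in medium (3.93 ± 0.12). Both genes were also higher in medium at 3 h than in medium at 0 h, by 1.36 and 1.01 on the log2 scale, so that their differences were 5.49 and 4.94 when medium at 0 h was the comparator. Zc3h12a, an RNase that cuts cytokine mRNAs, rose by 3.88, the survival kinase Pim1 by 3.62 and the early response gene Ier3 by 3.47. The remaining members of the 20 were Ccl4, a chemokine, at 4.20, and the antiviral gene Ifit1 at 4.32.

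The 20 largest falls ran over a smaller range than the rises, -3.17 to -1.58. C130050O18Rik, named as in the array's annotation, had 22.7 and 31 on the R848 arrays, against 367 in medium (-3.17 ± 0.16, adjusted p = 1.67e-07). Gpr183, a receptor for oxysterols that guides cell migration, had 79.2 and 92 with R848 and 864 in medium (-3.12 ± 0.10). Htr1b, a serotonin receptor, had 13.5 and 14.2 with R848 and 194 in medium (-2.82 ± 0.12), so that the R848 values lay below the median intensity of an array. Medium was far above both R848 arrays for all 3 genes. Klhl6, a ubiquitin ligase adaptor first studied in B cells, had 95 and 98.1 with R848 and 666 in medium (-2.60 ± 0.12). Hpgd, the dehydrogenase that inactivates prostaglandins, had 52.5 and 38.3 with R848 and 279 in medium (-2.27 ± 0.18). St8sia4, a polysialic acid transferase, fell by 1.96, Cdc6, a loader of replication origins, by 1.89, Tlr4, the receptor for lipopolysaccharide, by 1.81, and Nectin3, an adhesion molecule, by 1.79. Arrdc3, an arrestin-domain protein, and Frmd4b each fell by 1.77, and Dtl, the adaptor of a ubiquitin ligase that destroys Cdt1, fell by 1.75. The others of the 20 were Fam13c, the phosphatase Ptpro, Lhfpl2, Cytip, the lysosome fusion factor Plekhm1, the Tie2 ligand Angpt2, the sestrin Sesn1 and Otulinl, at -2.35 to -1.58.

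**Figure D2:**
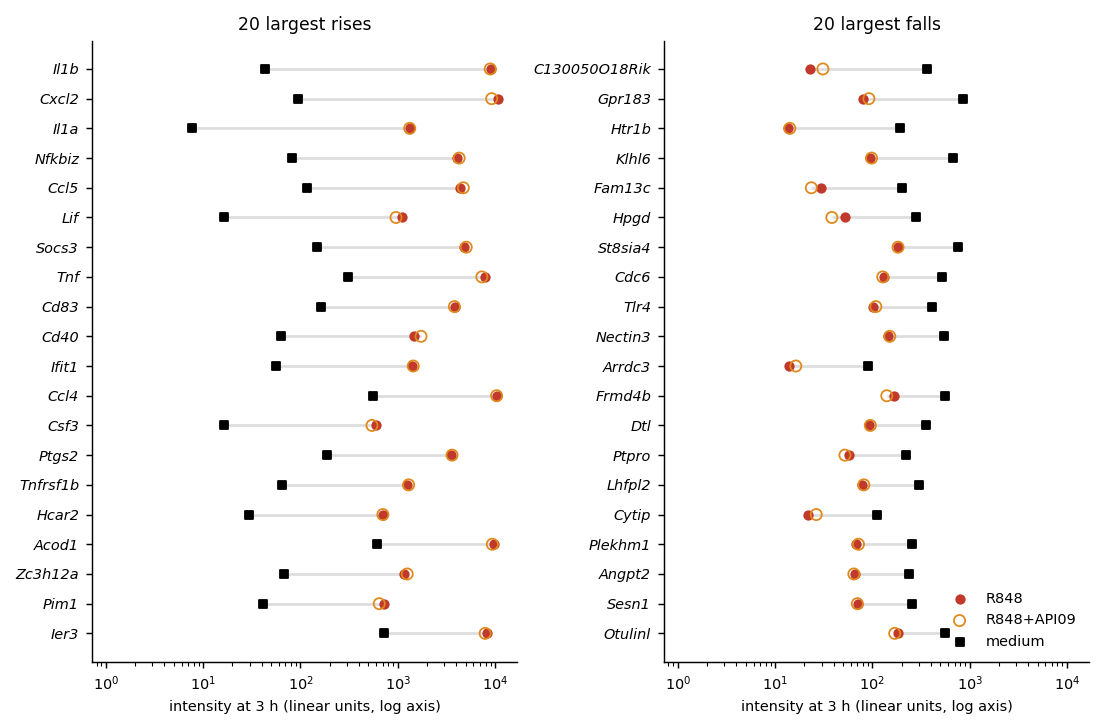
Intensities at 3 h on a log axis for the 20 largest rises (left) and the 20 largest falls (right), 1 array per symbol: R848 (filled circle), R848+API09 (open circle) and medium (square). The 40 genes were selected to have both R848 arrays on the same side of medium, and run from Il1b at 7.25 down to C130050O18Rik at -3.17.

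Where several probe sets measured 1 gene, the brightest was used, and they did not always move alike. Of the 40 genes, 23 had several, and in 14 these lay over 1 log2 unit apart. For Nfkbiz they ranged over 2.22 to 5.67, for Dtl over -1.75 to -0.04, for Hpgd over -2.27 to -0.13 and for Htr1b over -2.82 to -0.36. Nectin3 was the 1 gene among them with probe sets of both signs, over -1.79 to 0.03. The size for dim genes also depended on the offset, since Il1a gave 7.27 with an offset of 1 and 4.28 with 64, and Csf3 gave 5.04 and 2.99.

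Promoter sequences of 5 of these and related genes are printed because they carry the recognition letters of the factors named above. Each is the 250 bases before the annotated start, 5′ to 3′ on the gene's own strand, from RefSeq on GRCm38.p6. Capitals mark kappaB letters (GGGANNTTCC or GGGANNTCCC), interferon response element letters (GAAANNGAAA), AP-1 letters (TGANTCA) and E2F letters (TTTGGCGC or TTTCCCGC), each searched on both strands. Cxcl2 lies at chr5:90903649-90903898 (plus strand), Cxcl10 at chr5:92348890-92349139 (minus strand), Ifit1 at chr19:34640639-34640888 (plus strand), Cdc6 at chr11:98907901-98908150 (plus strand) and Dtl at chr1:191575545-191575794 (minus strand).
Cxcl2: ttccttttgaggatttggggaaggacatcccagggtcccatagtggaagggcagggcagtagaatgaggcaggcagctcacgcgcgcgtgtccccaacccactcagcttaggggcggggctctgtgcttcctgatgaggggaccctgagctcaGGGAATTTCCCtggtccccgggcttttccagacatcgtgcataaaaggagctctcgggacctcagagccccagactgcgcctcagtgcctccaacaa
Cxcl10: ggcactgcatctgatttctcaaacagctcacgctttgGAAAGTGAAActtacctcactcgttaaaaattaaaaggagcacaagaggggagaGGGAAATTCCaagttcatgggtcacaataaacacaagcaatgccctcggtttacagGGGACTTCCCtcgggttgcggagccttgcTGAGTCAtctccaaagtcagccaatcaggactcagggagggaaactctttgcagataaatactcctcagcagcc
Ifit1: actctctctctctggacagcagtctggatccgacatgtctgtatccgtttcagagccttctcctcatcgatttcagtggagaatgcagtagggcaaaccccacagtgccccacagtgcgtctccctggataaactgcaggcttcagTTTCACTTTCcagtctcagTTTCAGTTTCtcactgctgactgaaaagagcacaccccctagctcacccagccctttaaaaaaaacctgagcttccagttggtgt
Cdc6: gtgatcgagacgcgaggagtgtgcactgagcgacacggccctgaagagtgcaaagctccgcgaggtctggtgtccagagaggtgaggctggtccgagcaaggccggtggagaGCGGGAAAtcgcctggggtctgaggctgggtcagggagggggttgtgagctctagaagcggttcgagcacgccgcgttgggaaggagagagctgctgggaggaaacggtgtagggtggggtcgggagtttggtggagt
Dtl: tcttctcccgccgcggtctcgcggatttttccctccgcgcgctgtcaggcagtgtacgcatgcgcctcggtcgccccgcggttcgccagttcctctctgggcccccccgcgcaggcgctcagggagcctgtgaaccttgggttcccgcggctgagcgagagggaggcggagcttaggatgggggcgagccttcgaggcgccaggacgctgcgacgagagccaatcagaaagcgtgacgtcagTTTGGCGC

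The kappaB letters of Cxcl2 match on both strands as 1 stretch, Cxcl10 holds 2 separate kappaB stretches with 1 interferon response element and 1 AP-1 match, and Ifit1 holds 2 interferon response elements. Cdc6 and Dtl, both lower with R848, each hold 1 E2F match, which in Dtl ends at the base before the start. Of 262 promoters of genes higher by at least 1, 6.11% held kappaB letters, 9.92% an interferon response element and 12.2% AP-1 letters. Among all 12621 promoters of genes tested these shares were 2.02%, 2.57% and 4.64%, and among all 32851 RefSeq promoters 1.77%, 2.98% and 6.75%. E2F letters stood in 5.38% of 130 promoters of genes lower by at least 1, which is 7 promoters, against 2.37% of those tested and 1.3% of all. The other way round, promoters of genes lower by at least 1 held kappaB letters in 0.769%, an interferon response element in 3.08% and AP-1 letters in 3.85%, and those of genes higher by at least 1 held E2F letters in 1.53%. Of 1401 promoters of genes tested with any match, 5 held matches of 2 motifs that overlapped. A match is a description of letters and not evidence of binding, and some genes have several promoter entries.

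Secreted cytokines rose as a list. Of 24 cytokine genes tested, 18 were called higher and 0 lower, with a median difference of 1.31, against -0.03 over all genes tested. Over all genes, 6.23% were called higher, 9.19% lower and 15.4% either way. Those shares are the background for the counts of this list and of every list below. Beyond Il1b, Il1a, Lif, Tnf and Csf3, Il1rn, the natural blocker of the interleukin-1 receptor, had 3755 and 3895 on the R848 arrays, against 654 in medium (2.52 ± 0.10). Il10, which restrains macrophages, had 156 and 149 with R848 and 14.3 in medium (2.48 ± 0.09), and Il6 had 62.8 and 65.8 with R848 and 5.51 in medium (1.90 ± 0.10). Il12b, the shared subunit of interleukins that instruct T cells, was dim at 36.6 and 33.8 with R848 and 10.5 in medium (0.95 ± 0.12, adjusted p = 2.17e-04). Its partner in one of those cytokines, Il23a, had 18.9 and 17.9 with R848 and 12.2 in medium (0.29 ± 0.10, adjusted p = 0.0988) and did not pass.

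Of 16 chemokine genes tested, 12 were called higher and 0 lower (1 lower without the R848+API09 array at 22 h), with a median of 0.93. Ccl3 was bright in all 3 arrays, at 14275 and 14413 with R848 and 2561 in medium (2.48 ± 0.08), and Ccl4 had 10540.5 and 10388 with R848 and 553 in medium. Ccl22, a ligand for regulatory and helper T cells, had 387 and 325 with R848 and 17.5 in medium (3.47 ± 0.12). Ccl2, the main attractant of monocytes, had 1349.8 and 1421 with R848 and 295 in medium (2.17 ± 0.13). Cxcl10, an interferon-inducible chemokine, had 1406 and 1439 with R848 and 375 in medium (1.88 ± 0.11). Both R848 arrays lay above medium for these 5 genes, which is no trait of theirs alone. None of the 1891 called genes had R848 arrays on both sides of medium.

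Genes of the NF-kB system itself were higher too. Of 4 subunit genes tested, 3 were called higher, namely Rel at 2.31 ± 0.18, Nfkb2 at 1.63 ± 0.09 and Relb at 1.003 ± 0.10, while Rela, which encodes the constitutive subunit, had 416 and 385 with R848 and 388 in medium (0.04 ± 0.13, adjusted p = 0.89). The other kept probe set of Nfkb2 gave 0.01. Of 22 feedback inhibitors and regulators, 15 were called higher and 0 lower (median 1.16, 1 lower without the R848+API09 array at 22 h). Nfkbia, the gene of the main cytoplasmic inhibitor, was already bright in medium and rose to 9026 and 8991 with R848, against 4014 in medium (1.16 ± 0.08). Nfkbie, a sister inhibitor, had 1068 and 1174 with R848 and 234 in medium (2.18 ± 0.23), Tnfaip3, a deubiquitinase that shuts off NF-kB, had 535 and 561 with R848 and 88.2 in medium (2.44 ± 0.14), and the adaptor Traf1 had 954 and 953 with R848 and 91.1 in medium (3.18 ± 0.19).

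Interferon-stimulated genes held the most higher members of the 35 lists. Of 43 tested, 35 were called higher and 0 lower, with a median of 0.97. Ifit1, which binds viral RNA, had 1389 and 1444 with R848 and 55.6 in medium, and its neighbours Ifit3 and Ifit2 rose by 2.89 and 2.26. Rsad2 (viperin) had 877 and 990.4 with R848 and 143 in medium (2.57 ± 0.16), the dynamin-like Mx2 had 186 and 188 with R848 and 35.7 in medium (1.97 ± 0.11), and the guanylate binding protein Gbp3 had 164 and 181 with R848 and 27.5 in medium (2.11 ± 0.12). Ifnb1, interferon beta itself, was dim, at 40.7 and 34.9 with R848 and 11.5 in medium (0.97 ± 0.13, adjusted p = 3.44e-04). Of 23 interferon pathway regulators, 10 were called higher and 0 lower (2 lower without the R848+API09 array at 22 h), with Socs3 in front, the kinase Jak2 at 2.05, Stat5a at 1.55 and Stat2 at 1.05. No member of the interferon-stimulated list was called at 1 h, when 0.636% of all genes were called higher. At 7 h, 37 members were called higher, against 11.3% of all genes. By the test of the difference, 27 members had a higher response at 3 h than at 1 h, against 3.35% of all genes. For 0 members it was lower, and 16 were not called.

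The genes of the R848 receptor and its closest partners did not pass the test as reported, though for Tlr7 and Myd88 this depended on the setting, since they passed under 9 and 5 of 19 alternatives. Tlr7 had 404 and 410.3 on the R848 arrays, against 526 in medium (-0.36 ± 0.12, adjusted p = 0.0762), and Unc93b1, which carries the receptor to endosomes, had 1495 and 1455 with R848 and 1444 in medium (0.03 ± 0.08). Myd88 had 994 and 1015 with R848 and 841 in medium (0.25 ± 0.11, adjusted p = 0.19). Of 16 Toll-like receptors and trafficking partners, 2 were called higher and 3 lower, with 1 higher without the R848 array at 3 h, and 4 higher and 5 lower without the R848+API09 array at 22 h. Tlr1, which pairs with Tlr2 to sense lipopeptides, had 224 and 243 with R848 and 82.4 in medium (1.34 ± 0.11). The surface receptor Tlr4 had 101 and 108 with R848 and 408 in medium (-1.81 ± 0.11), and Tlr13, the endosomal sensor of bacterial ribosomal RNA, had 66.6 and 63.3 with R848 and 165 in medium (-1.16 ± 0.10). Of 20 adaptors and kinases, 6 were called higher and 0 lower (1 lower without the R848+API09 array at 22 h), with Slc15a3, an endolysosomal transporter, at 1.73 ± 0.09, Ticam1 at 0.87 and the kinase gene Irak2 at 0.76.

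Of 23 costimulatory and adhesion molecules, 13 were called higher and 1 lower (median 0.61). The lower one was Itga4, an integrin chain, at -0.66 ± 0.18, whose call was lost without either R848 array at 3 h, leaving 0 lower. Icosl, a T cell costimulator, had 125 and 109 with R848 and 23.5 in medium (1.75 ± 0.12), Icam1, an adhesion ligand, had 1455 and 1426 with R848 and 446 in medium (1.66 ± 0.10), and the activation marker Cd69 had 72.4 and 81.3 with R848 and 8.1 in medium (1.94 ± 0.13). Macrophage surface receptors were divided, with 11 of 45 called higher and 8 lower (median -0.03). Higher counts were 7 without the R848 array at 3 h, and lower counts 13 without the R848+API09 array at 22 h. Gpr84, a receptor for medium-chain fatty acids, had 6800.2 and 6736 with R848 and 1296 in medium, although its error was wide (2.37 ± 0.39). Clec4e, a lectin that senses mycobacterial glycolipid, rose by 1.501, and Plaur, the urokinase receptor, by 1.82. On the lower side stood Gpr34 at -1.35 ± 0.19, the chemokine receptor Cxcr4 at -1.002 ± 0.09, the signal receptor Sirpa at -0.81 ± 0.12 and the ATP-gated channel P2rx7 at -0.76 ± 0.11.

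Regulators of G-protein and cyclic nucleotide signalling divided in the same way, with 8 of 24 called higher and 6 lower (10 lower without the R848+API09 array at 22 h). Pde4b, a phosphodiesterase that breaks down cyclic AMP, had 518 and 551 with R848 and 74.7 in medium (2.60 ± 0.12). Rgs2, which limits signalling from Gq-coupled receptors, had 384 and 487 with R848 and 1162 in medium (-1.39 ± 0.15), while its relative Rgs16 rose by 1.79. Rasgrp3, an activator of Ras and Rap, had 482 and 483 with R848 and 987 in medium (-1.01 ± 0.11).

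Transcription factor genes changed in both directions. Among 25 immediate-early genes, 13 were called higher and 3 lower (median 0.45). Atf3, a repressor of inflammatory genes, had 688 and 768 with R848 and 175 in medium (1.96 ± 0.14), and Junb had 1015 and 1084 with R848 and 384 in medium (1.41 ± 0.16). The 3 lower genes were Klf4 at -1.28 ± 0.15, Fosl2 at -0.80 ± 0.15 and Jun at -0.57 ± 0.12. The call of Jun was lost without the R848+API09 array at 3 h, and that of Fosl2 with medium at 0 h as the comparator (-0.27). Of 52 macrophage transcription factors, 16 were called higher and 6 lower (median 0.14). Cebpd, an amplifier of inflammatory transcription, had 1775 and 1840.1 with R848 and 298 in medium (2.54 ± 0.11), and Ets2 had 2590.3 and 2238 with R848 and 529.9 in medium (2.15 ± 0.11). The other kept probe set of Cebpd gave 0.19. Fli1, an ETS factor of blood cells, had 135 and 134 with R848 and 328 in medium (-1.19 ± 0.18), and Mef2c fell by 0.74.

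Feedback on MAP kinases and on mRNA rose in part. Of 15 MAP kinase phosphatases and feedback inhibitors, 6 were called higher and 2 lower (1 lower without the R848 array at 3 h). The phosphatase genes Dusp5 and Dusp2 had differences of 2.56 ± 0.15 and 2.51 ± 0.11, and Dusp1 had 567 and 591 with R848 and 204 in medium (1.44 ± 0.11). Of 12 RNA decay regulators, 6 were called higher and 1 lower. Zfp36 (tristetraprolin), which destroys Tnf mRNA, had 1041 and 1084 with R848 and 255 in medium (1.99 ± 0.10), while its relative Zfp36l2 had 381 and 327 with R848 and 847.6 in medium (-1.23 ± 0.14). Probe sets of Zfp36l2 ranged over -1.23 to 0.09.

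**Figure D3:**
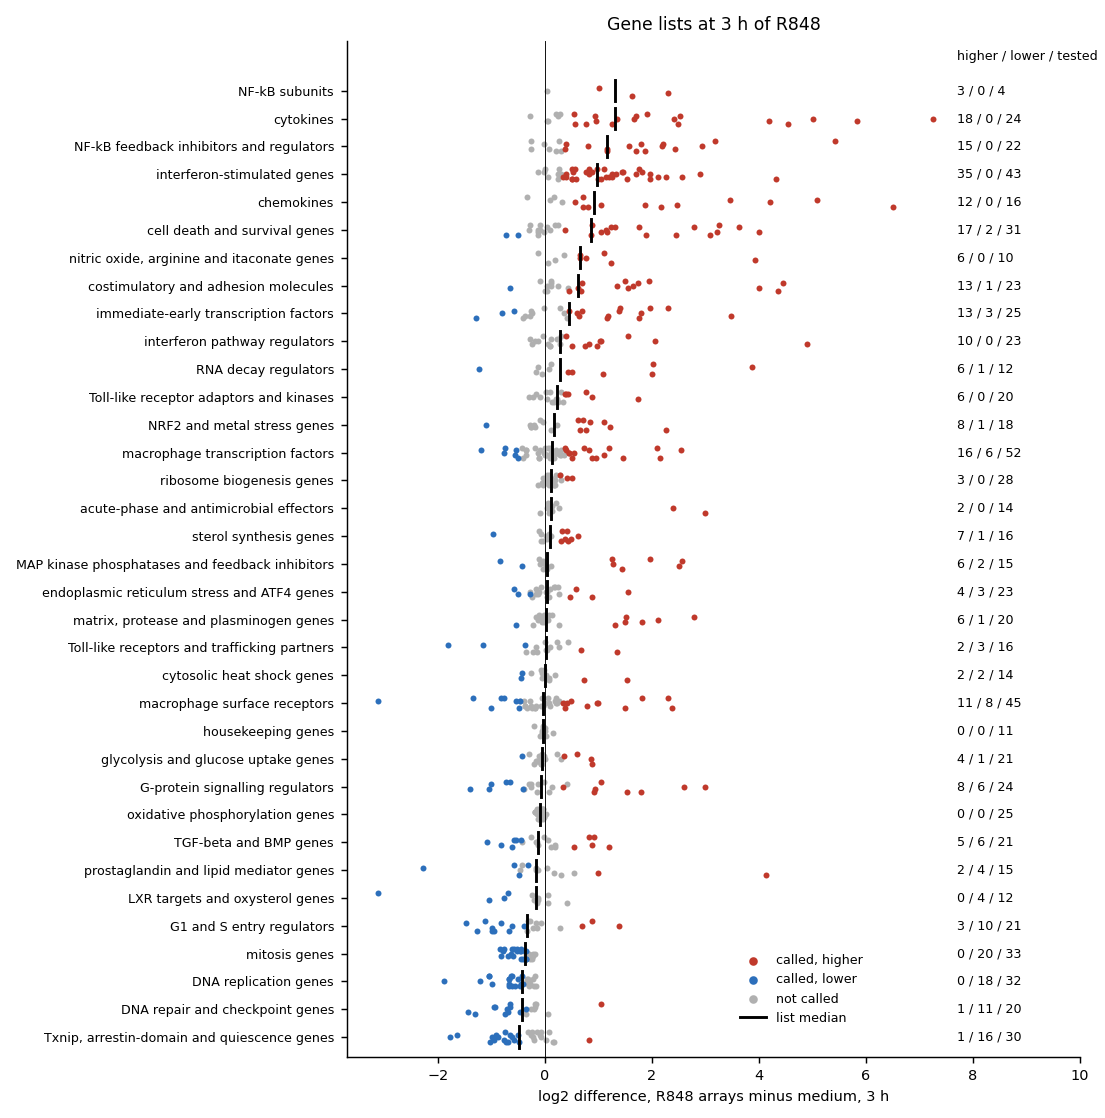
Log2 difference between the R848 arrays and medium at 3 h for each tested member (points, coloured by call) of 35 gene lists, ordered by list median (black bar). Numbers at the right give members higher, lower and tested, such as 35, 0 and 43 for interferon-stimulated genes near the top and 0, 20 and 33 for mitosis genes near the bottom.

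Every replication and mitosis gene that was called was lower with R848, against 9.19% lower over all genes. Of 32 DNA replication genes, 0 were called higher and 18 lower (median -0.43), and of 33 mitosis genes 0 were called higher and 20 lower (median -0.36). The replication count was 28 without the R848+API09 array at 22 h, and the mitosis count 13 without the R848 array at 3 h. With the medium arrays of 0, 1, 3 and 7 h as 1 group, 29 and 33 were lower. Cdc6 had 132 and 128 with R848 and 524 in medium (-1.89 ± 0.09), and Cdt1, with which it loads the replicative helicase, had 1439 and 1435 with R848 and 2979 in medium (-1.04 ± 0.08). Gins3, a helicase cofactor, had 73.4 and 74.5 with R848 and 192 in medium (-1.21 ± 0.10), and Tk1, a thymidine kinase, had 658 and 648 with R848 and 1370.2 in medium (-1.05 ± 0.09). Among mitosis genes the differences included -0.83 ± 0.14 for the spindle checkpoint kinase Ttk, -0.76 ± 0.13 for the proliferation marker Mki67 and -0.68 ± 0.12 for the mitotic kinase Plk1.

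Among regulators of S phase entry and DNA repair genes, more members were called lower than higher. Of 21 G1 and S entry regulators, 3 were called higher and 10 lower (median -0.33). The E2F family genes E2f8 and E2f2 had differences of -1.47 ± 0.12 and -1.28 ± 0.10, and cyclin gene Ccne2 had 229.8 and 236 with R848 and 522 in medium (-1.11 ± 0.11). The 3 higher genes were Myc, at 898 and 965 with R848 and 348 in medium (1.38 ± 0.14), the cyclin-dependent kinase inhibitor Cdkn1a at 0.88 ± 0.09 and the kinase Cdk6 at 0.69 ± 0.12. Myc was also higher in medium at 3 h than in medium at 0 h, by 1.34, and its difference was 2.72 with medium at 0 h as the comparator. Of 20 DNA repair and checkpoint genes, 11 were called lower (7 without the R848+API09 array at 3 h) and 1 higher. Ung, which removes uracil from DNA, had 135 and 118 with R848 and 370.0 in medium (-1.44 ± 0.11), and Brca1 had 106 and 102 with R848 and 281 in medium (-1.31 ± 0.10). The higher one was Mdm2, the ubiquitin ligase of p53, at 1.05 ± 0.13.

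Genes tied to quiescence, several of which restrain proliferation, were lower as well. Of 30 genes of the Txnip, arrestin-domain and quiescence list, 16 were called lower and 1 higher (median -0.49). Sesn1 had 72 and 70 with R848 and 257 in medium (-1.65 ± 0.11), and Arrdc3 had 13.7 and 16.3 with R848 and 90 in medium (-1.77 ± 0.13). The cyclin-dependent kinase inhibitor genes Cdkn2c and Cdkn1b had differences of -0.99 ± 0.10 and -0.95 ± 0.09. Btg1, an antiproliferative gene, was the higher one, at 7333 and 6692 with R848 and 3963 in medium (0.82 ± 0.09).

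Of 31 cell death and survival genes, 17 were called higher and 2 lower (median 0.86). The lower count was 1 without the R848 array at 3 h and 4 without the R848+API09 array at 22 h. Death receptor gene Fas had 615 and 612 with R848 and 49.6 in medium (3.26 ± 0.11), and Gadd45b, a stress regulator of MAP kinases, had 1329.9 and 1441 with R848 and 134 in medium (3.22 ± 0.13), with probe sets over 0.55 to 3.52. Serpinb2, an inhibitor of plasminogen activators, had 136 and 123 with R848 and 5.18 in medium (2.78 ± 0.17).

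Metabolic lists differed in how many of their members were called, at 60.0% for nitric oxide, arginine and itaconate genes, 50.0% for NRF2 and metal stress genes, 40.0% for prostaglandin and lipid mediator genes and 23.8% for glycolysis and glucose uptake genes, against 15.4% of all genes. Of 10 nitric oxide, arginine and itaconate genes, 6 were called higher and 0 lower (median 0.66), among them Odc1, which starts polyamine synthesis, at 1.24 ± 0.10, and Gch1, which starts synthesis of the nitric oxide synthase cofactor, at 1.11 ± 0.11. Nos2, the inducible synthase, was not among them, at 26.6 and 23 with R848 and 23.2 in medium (0.06 ± 0.19, adjusted p = 0.91). Of 15 prostaglandin and lipid mediator genes, 2 were called higher and 4 lower (2 lower without the R848 array at 3 h, 4 higher without the R848+API09 array at 22 h). Ptgs2 and the receptor gene Ptger2 (0.99 ± 0.09) were higher, while Hpgd and the phospholipase Pla2g4a (-0.49 ± 0.09) were lower.

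Of 21 glycolysis and glucose uptake genes, 4 were called higher and 1 lower (2 lower without the R848+API09 array at 22 h, and 2 higher and 6 lower with medium at 0 h as the comparator). Glucose transporter genes Slc2a1 and Slc2a6 had differences of 0.88 ± 0.09 and 0.86 ± 0.12, and Hk1, a hexokinase, had -0.42 ± 0.08. Of 18 NRF2 and metal stress genes, 8 were called higher and 1 lower (3 lower without the R848+API09 array at 22 h). Cystine transporter gene Slc7a11 had 808 and 714 with R848 and 145 in medium (2.27 ± 0.11), and Gclc, a subunit of the first enzyme of glutathione synthesis, was the lower one, at 325 and 391.8 with R848 and 787 in medium (-1.11 ± 0.14).

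Of 12 LXR targets and oxysterol genes, 4 were called lower and 0 higher (leaving out the R848+API09 array at 22 h, 1 higher). Called shares were 33.3% for this list and 50.0% for sterol synthesis genes, against 15.4% of all genes. Beside Gpr183, the cholesterol exporter gene Abcg1 had 219 and 224 with R848 and 473 in medium (-1.04 ± 0.09), and Srebf1, a regulator of fatty acid synthesis, had -0.69 ± 0.10. Abca1, the related exporter gene, did not pass, at 0.42 ± 0.15 (adjusted p = 0.091), but medium at 3 h was higher than medium at 0 h by 1.19, and with medium at 0 h its difference was 1.61. The 16 sterol synthesis genes had no settled direction. Of these, 7 were called higher and 1 lower against medium at 3 h, but 1 higher and 10 lower against medium at 0 h. The count of higher genes was 2 without the R848+API09 array at 3 h, 4 without the R848 array at 3 h and 3 without either medium array at 0 h. Dhcr7, the last enzyme of cholesterol synthesis, was the lower one, at 101 and 95.4 with R848 and 209 in medium (-0.98 ± 0.09).

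Of 20 matrix, protease and plasminogen genes, 6 were called higher and 1 lower (0 lower without the R848 array at 3 h), with the protease inhibitor Timp1 at 2.12 ± 0.18, the matrix glycoprotein Tnc at 1.52 ± 0.14 and the membrane protease Mmp14 at 1.502 ± 0.12. Of 14 acute-phase and antimicrobial effectors, 2 were called higher and 0 lower, or 14.3%, near the 15.4% of all genes. The 2 members were Saa3, a serum amyloid A gene, at 932 and 919 with R848 and 102 in medium (3.00 ± 0.11), and Marcksl1 at 2.40 ± 0.09. Marcksl1 encodes a MARCKS-like protein, so of these 2 only Saa3 matches the name of the list. Called shares were 35.0% for the matrix list and 52.4% for TGF-beta and BMP genes. Of 21 TGF-beta and BMP genes, 5 were called higher and 6 lower (3 lower without the R848+API09 array at 3 h). Receptor gene Tgfbr2 had 374 and 365 with R848 and 796 in medium (-1.07 ± 0.10), and the inhibitor of DNA binding genes Id2, Id3 and Id1 had 1.20 ± 0.11, 0.89 ± 0.13 and 0.83 ± 0.10. The calls of Id2 (0.72) and Id3 (0.46) were lost with the medium arrays of 0, 1, 3 and 7 h as 1 group. The receptor gene Tgfbr1 was called lower at -0.82 ± 0.09 and was not called with medium at 0 h as the comparator (0.11).

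Endoplasmic reticulum stress and heat shock genes were called in both directions, at 30.4% and 28.6% of members against 15.4% of all genes, and ribosome biogenesis genes at 10.7%. Of 23 endoplasmic reticulum stress and ATF4 genes, 4 were called higher and 3 lower (1 lower without the R848+API09 array at 3 h, and 10 higher and 8 lower with medium at 0 h as the comparator). Herpud1, which serves protein degradation from that compartment, had 2395 and 2329 with R848 and 789 in medium (1.56 ± 0.12), and the chaperone gene Dnajb9 had -0.57 ± 0.09. Of 14 cytosolic heat shock genes, 2 were called higher and 2 lower, and the lower count was 0 without any 1 of the R848 array at 3 h, the R848+API09 array at 3 h or a medium array at 0 h. Hspa1b, an inducible chaperone gene, had 543 and 480.0 with R848 and 166 in medium (1.54 ± 0.14). Of 28 ribosome biogenesis genes, 3 were called higher and 0 lower (9 higher with medium at 0 h as the comparator), and of 25 oxidative phosphorylation genes none was called by limma, with a median of -0.08.

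With medium at 0 h as the comparator, counts of lower members moved in further lists, to 10 macrophage transcription factors, 5 Toll-like receptors and trafficking partners, 5 heat shock genes, 4 each of the interferon pathway regulators, cell death genes, NRF2 genes and MAP kinase phosphatases, 3 TGF-beta and BMP genes, 2 each of the RNA decay regulators and Toll-like receptor adaptors, and 0 matrix genes. It gave 1 lower member in each of the interferon-stimulated, NF-kB feedback and oxidative phosphorylation lists and 1 higher LXR target. Genes described above that were called and whose difference moved by over 1.5 times with it, besides those already given, included Gpr34 (-2.11), Rgs16 (2.90), Dnajb9 (-1.09), Nectin3 (-1.18), Herpud1 (0.91), Jun (-0.96), Gclc (-0.62), Cxcr4 (-0.51) and Slc2a1 (0.41).

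The response at 3 h was set against the response at 1 h by the test of the difference between them. At 1 h, 78 genes (0.636%) were higher and 8 (0.0653%) lower. The response was higher at 3 h than at 1 h for 410 genes (3.35%) and lower for 513 (4.19%). The count of lower genes was 305 without the R848+API09 array at 3 h, 330 without the R848 array at 3 h and 1035 without the R848+API09 array at 22 h, and the count of higher genes was 663 without the last. Of the 764 genes higher at 3 h, 64 were called higher at 1 h as well, which is 8.38% of them and 82.1% of those at 1 h. Of the 1127 lower at 3 h, 5 were called lower at 1 h. Falls of at least 1 were deeper at 3 h than at 1 h for 105 of 109 genes, and rises of at least 1 were larger at 3 h for 229 of 256. These genes were picked for a large difference on the same 3 h arrays. High counts were therefore built in, and no conclusion about timing is drawn from them.

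Il1b was at 1.47 after 1 h and 7.25 after 3 h, a difference of 5.78 ± 0.24. Genes near 0 at 1 h and strongly higher at 3 h included Cd40 (-0.00 at 1 h, difference 4.35 ± 0.17), Ccl5 (0.32, 4.77 ± 0.14), Ifit1 (0.10, 4.22 ± 0.23) and Tnfrsf1b (0.01, 3.99 ± 0.15). In contrast, 11 of the 25 immediate-early genes had a lower response at 3 h than at 1 h, while 4 had a higher one and 10 were not called. Egr1, a zinc finger factor induced within minutes, was at 3.22 after 1 h and -0.27 after 3 h (difference -3.49 ± 0.17, adjusted p = 6.82e-07), and Jun was at 2.53 and -0.57 (difference -3.11 ± 0.18). Tnfaip3 was at 4.02 and 2.44 (-1.58 ± 0.19), Dusp1 at 3.53 and 1.44 (-2.09 ± 0.16), and Zfp36 at 3.30 and 1.99 (-1.31 ± 0.14), so these feedback genes were still called higher at 3 h but less so. Btg2, an antiproliferative immediate-early gene, was at 3.20 and 1.79 (-1.41 ± 0.19).

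**Figure D4:**
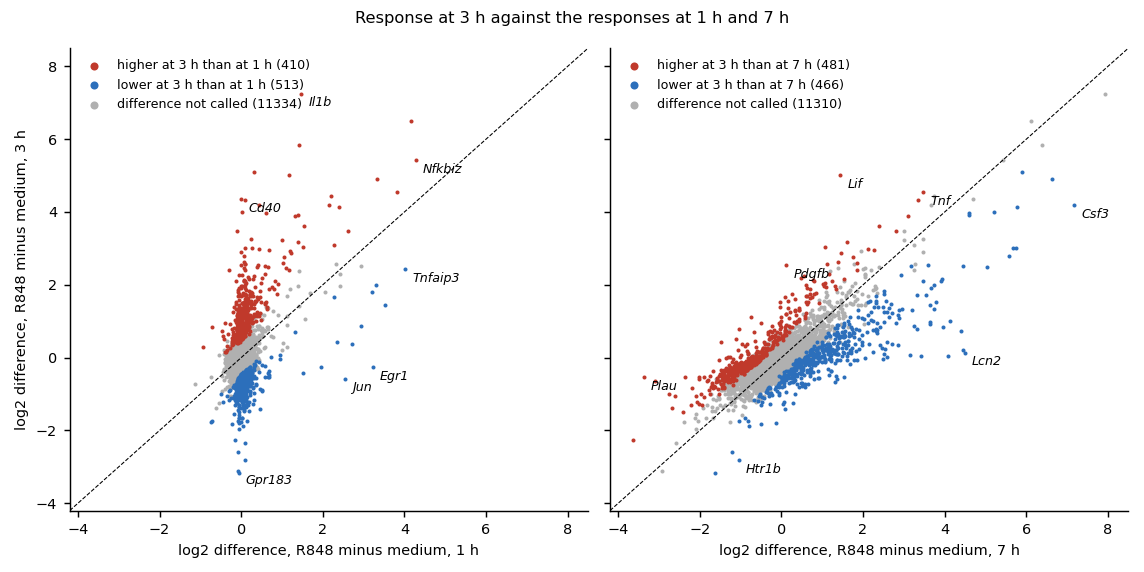
Log2 difference between R848 and medium at 3 h (vertical) against that at 1 h (left) and 7 h (right) for 12257 genes. Points off the dashed line of equality differ between hours, and colour marks those called by the test of the difference, 410 higher and 513 lower against 1 h, and 481 higher and 466 lower against 7 h.

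At 7 h, 1389 genes (11.3%) were higher and 2262 (18.5%) lower. Of the 764 genes higher at 3 h, 576 were higher at 7 h too (75.4% of them, 41.5% of those at 7 h), and of the 256 that rose by at least 1, 238 were (93.0%). Of the 1127 lower genes, 804 were lower at 7 h (71.3%, and 35.5% of those at 7 h), and 99 of the 109 that fell by at least 1 were. The response at 3 h was higher than that at 7 h for 481 genes (3.92%) and lower for 466 (3.8%). The first count was 275 without the R848+API09 array at 3 h, 273 without the R848 array at 3 h and 1074 without the R848+API09 array at 22 h, and the second was 302 without the R848+API09 array at 3 h and 853 without that at 22 h. At 22 h, 2027 genes (16.5%) were higher and 3570 (29.1%) lower. The R848+API09 array at 22 h was dimmer, with an upper quartile of 87.02, against 103.6 (R848) and 116.4 (medium). How far this shift enters the counts at 22 h was not tested. Of the 764, 372 were higher at 22 h (48.7%) and 147 were lower, among them Cd83, Btg2 and Icam1.

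Among genes called higher at 3 h, the response exceeded those at both 1 h and 7 h for 89 by the tests of the difference. Among genes called lower at 3 h, it lay below both for 73. Lif stood out, at 1.17, 5.01, 1.45 and 0.90 after 1, 3, 7 and 22 h, and so did Pdgfb, a growth factor gene, at 0.42, 2.53, 0.11 and -0.00. Tnf, Traf1, Nfkbie, Cxcl10, Rasgef1b, an activator of Ras-family proteins, Icosl and Ifit1 were among the 89 as well. Klhl6 was at -0.07, -2.60, -1.21 and -0.37, and Klf4 at 0.04, -1.28, 0.04 and -0.98. Htr1b, Cdc6, Dtl, Tlr4, Nectin3, Cdt1 and Cxcr4 were likewise among the 73. For Tlr4 the difference was -1.81 at 3 h and -0.51 at 7 h (-1.31 ± 0.16 between them).

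Other genes had not reached their later level by 3 h. Csf3 was at 4.18 after 3 h and 7.17 after 7 h, Il10 at 2.48 and 5.04, Il6 at 1.90 and 3.66, Saa3 at 3.00 and 5.66, and Serpinb2 at 2.78 and 5.58. Some genes that were high at 7 h had no call at 3 h, among them the iron-binding lipocalin Lcn2 (0.13 and 4.49), the chemokine receptor Ccr1 (0.20 and 4.44), the calprotectin chain S100a8 (0.04 and 4.07) and the alarmin Il33 (0.05 and 3.42). Maf, a transcription factor that favours Il10, was called at 3 h at 0.73 and reached 4.39 at 7 h. Its call at 3 h was lost with the mean over probe sets (0.15). Replication genes moved further down as well, with 18 of 32 lower at 3 h and 30 at 7 h, and mitosis genes with 20 of 33 lower at 3 h and 32 at 7 h. Over all genes the lower share also grew, from 9.19% at 3 h to 18.5% at 7 h. For 18 of the replication genes and 15 of the mitosis genes the test of the difference called the response higher (less low) at 3 h than at 7 h, and for 2 of the replication genes lower. Over all genes these shares were 3.92% higher and 3.8% lower. Tk1, for one, was at -1.05 and -2.60.

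**Figure D5:**
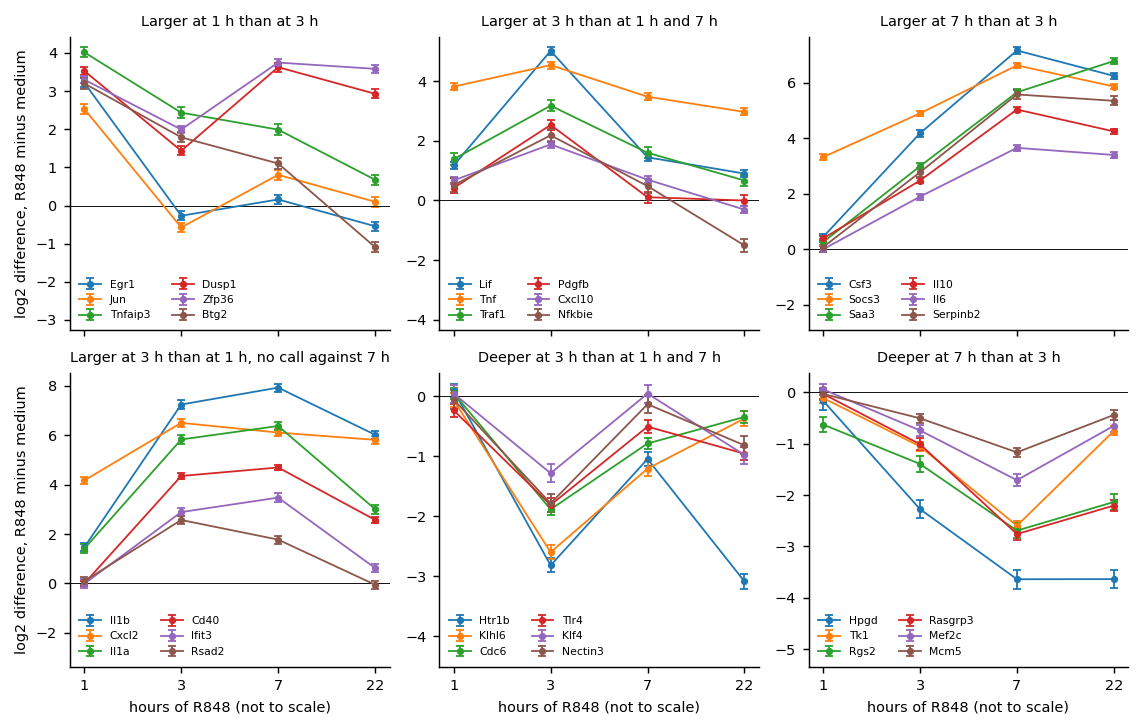
Log2 difference between R848 and medium (± standard error) after 1, 3, 7 and 22 h for genes of 6 patterns, defined by the tests of the difference between 3 h and 1 h or 7 h. Il1b is already at 7.25 at 3 h, Egr1 is back to -0.27 by then, and Csf3 goes on to 7.17 at 7 h.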

How the data were processed

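RNA of RAW cells was amplified with the NuGEN Ovation system and hybridised to 18 arrays with 45101 probe sets, per the labels' protocols and the deposited table. The deposited table holds linear intensities, 1 column per array. How the authors corrected background, summarised probes and normalized arrays is not given in the sources used here, and limma is named without version or role in the submitters' processing notes. The similar medians of all arrays are a property of the deposited table. Upper quartiles were less alike, from 87.02 (R848+API09 at 22 h) to 118.6 (medium at 0 h, replicate 1). Every column was mapped to a sample by its title, and 0 columns were left unmapped.

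From these intensities, log2(intensity + 16) was computed. Of the probe sets, 34945 had 1 gene symbol, 932 several and 9160 none, apart from 64 controls, per the platform annotation, whose symbols were updated through Entrez identifiers against RefSeq. Probe sets whose intensity exceeded the overall median of 18.1 on 3 or more arrays were kept, and the kept probe set with the highest mean stood for its gene, which left 12257 genes. Genes not among them are not analysed here. Models were fitted with lmFit and eBayes of limma 3.58.1 in R 4.3.3, with each treatment and hour as a group, except that R848 and R848+API09 at the same hour shared one. Contrasts were R848 minus medium at each hour and the differences of the response at 3 h from those at 1 h and 7 h, with Benjamini-Hochberg adjustment. A gene with adjusted p under 0.05 was called, and the number of arrays limits the precision. The fit was run on simulated data with independent noise drawn from its own variances. That run checks the code only, and cannot test whether the single medium array at 3 h varies like the others.

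Genes named are the 20 largest rises and falls, the 6 largest differences of each sign between hours, up to 6 members of each gene list by size with any member called against its list, and a fixed set of pathway genes. The 20 rises and falls were taken from called genes whose R848 and R848+API09 arrays at 3 h lay on the same side of medium. The arrays, gene lists and tests were chosen with earlier results of these data known. Markers and gene families not named were summarised by counts. Promoters and gene coordinates came from RefSeq on GRCm38.p6, with an entry for 212 of the 268 named genes. Alternatives covered normalization, offset, filter, probe set choice, variance model, arrays in the fit and the medium used as comparator.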

Additional observations from a re-analysis of the deposited data

Results flagged for a closer look

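The response at 3 h differed from that at 1 h and from that at 7 h by limma's test of the difference itself. It was higher than that at 1 h for 410 genes and lower for 513, and higher than that at 7 h for 481 genes and lower for 466. All differences are between log2 responses over the R848 and R848+API09 arrays of each hour, with 1 medium array per hour.

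Against 1 h, the 6 largest positive differences were 5.78 for Il1b, 4.77 for Ccl5, 4.42 for Il1a, 4.35 for Cd40, 4.22 for Ifit1 and 3.99 for Tnfrsf1b. The 6 largest negative ones were -3.49 for Egr1, -3.12 for C130050O18Rik, -3.11 for Jun, -3.04 for Gpr183, -2.91 for Htr1b and -2.54 for Klhl6. Egr1 and Jun were high at 1 h, whereas the other 4 genes were near 0 at 1 h and low at 3 h.

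Against 7 h, the 6 largest positive differences were 3.57 for Lif, 2.84 for Plau, 2.44 for Cd24a, 2.42 for Pdgfb, 1.95 for Rasgef1b and 1.93 for Fam107b. Lif, Pdgfb and Rasgef1b were higher at 3 h than at 7 h, while Plau, a urokinase gene (-3.38 at 7 h), Cd24a, a surface glycoprotein gene (-3.09), and Fam107b (-1.49) were lower than medium at 7 h. The 6 largest negative ones were -4.36 for Lcn2, -4.23 for Ccr1, -4.03 for S100a8, -3.66 for Maf, -3.38 for Il33 and -3.11 for Wfdc17. Wfdc17, a small secreted protein gene, was at 0.84 after 3 h and 3.95 after 7 h. The cause of these differences was not tested.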

How the results depend on the processing

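No paired analysis was possible because every group has 1 array, apart from medium at 0 h with 2, so that compared groups share fewer than 2 replicate numbers. With 1 array left out, the 764 higher genes ranged over 559 to 1133 and the 1127 lower genes over 692 to 1899. Genes higher by at least 1 ranged over 255 to 256, and those lower by at least 1 over 108 to 110. The medium array at 3 h was not among the arrays left out. The difference from 1 h ranged over 313 to 663 higher and 305 to 1035 lower, and that from 7 h over 273 to 1074 higher and 302 to 853 lower. With arrays of 0, 1, 3 and 7 h only, these were 1899 lower genes at 3 h, 663 and 1035 against 1 h, and 1074 and 853 against 7 h, since the wider pair at 22 h left the spread. Arrays of 0 and 3 h only gave 1208 higher and 2028 lower. Medium at 0 h as the comparator gave 1177 and 2363, and medium at 0, 1, 3 and 7 h as 1 group gave 1264 and 2440. A test against a minimum difference of 1 (treat) left 131 higher and 21 lower. Genes lower by at least 1 numbered 42 with an offset of 64, 161 with an offset of 1, 86 with each array centred on its median and 71 with the mean over probe sets.

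No called gene changed sign under the other alternatives run. With medium at 0 h as the comparator 20 did, and with the pooled medium 7 did. Among named genes called with either comparator the sign turned for Chordc1 (-0.29), Hk2 (-0.073), Insig1 (-0.35), Pfkfb3 (-0.21), Sc5d (-0.053) and Tgfbr1 (0.11) with medium at 0 h, and for Insig1 (-0.27) with the pooled medium. Over all named genes and alternatives, 5087 values stayed on their side of the threshold (values called in neither fit may still have changed sign), 248 lost the call, 89 gained it and 7 turned. The cause of these changes was not tested. Signal near background limits the size given for dim genes.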

Other observations

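Of the 256 genes that rose by at least 1, 22 were at or below 18.1, the median of all values, on the medium array at 3 h, and of the 109 that fell by as much, 4 were at or below it on both R848 arrays. Of the genes higher at 3 h, 47 were called higher at 1, 7 and 22 h too, and 75 were called at no other hour. Medium itself moved between 0 h and 3 h, with 63 genes higher and 56 lower at 3 h than in the 2 arrays at 0 h by limma. Myc and Ptgs2 were among the named genes with a shift of over 1 log2 unit in medium, at 1.34 and 1.36, as were Chac1, a glutathione-degrading ATF4 target (1.33), Abca1 (1.19), Rgs16 (1.10) and Acod1 (1.01).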
